A study of Arabidopsis thaliana with 12 samples.

Results

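The genes described here had a log2 ratio of Dex-treated over mock-treated inflorescences that departed from 0 at 4 h and lay near 0 at 12 h and at 72 h. A gene was a member when all 4 arrays of 4 h had the same sign, the absolute mean at 4 h was at least 0.7, and the absolute means at 12 h and at 72 h were both under 0.4. By this rule 124 of 10649 named genes were members, 57 of them higher and 67 lower at 4 h. The members were chosen from these values, so the values are given as a description, and the counts of test calls given further on support nothing about them.

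The arrays came from Arabidopsis thaliana inflorescences with flower buds of stages 1 to 9, on 35S:HAN-GR plants in the Landsberg erecta (Ler) background. Plants treated with 10 µM dexamethasone (Dex), which the labels call HAN overexpression, were set against mock-treated 35S:HAN-GR plants, which the labels call control, after 4, 12 and 72 h. Each of the 12 arrays co-hybridised both RNAs of one time, with 4 arrays per time, which the labels call biological replicates, and Dex RNA in Cy5 on 2 of them. Both groups carry the transgene, which the 35S promoter drives in most tissues, and no Dex-treated plants without it were among the samples, so effects of Dex itself and of HAN-GR cannot be told apart. Plants sampled at 0 h were not analysed here.

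HANABA TARANU (HAN) is a transcription factor of the GATA zinc-finger family that acts in meristems and flowers. A fusion to the glucocorticoid receptor (GR) is held in the cytoplasm until Dex binds the receptor part and lets the protein enter the nucleus, where it can act on its target genes. In such a time course, transcripts that change early and then return to the mock level are called transient, in contrast to those that change late or stay changed. The inflorescence is a mixture of tissues, and fewer cells of a type and less RNA per cell cannot be told apart in these ratios.

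The direction of the deposited ratio is not stated in the sources used here. Dex over mock is the likely direction, since the labels call the mock RNA the control. Arrays of opposite labelled dye correlated above 0 at each time once values at the limits of the table were set missing. That goes with one direction on all arrays but does not say which. With those limit values kept, 4 h replicates 1 and 2, which carry the same labelled dye, correlated at -0.81 over all gene probes. The limit values of these arrays had opposite signs, so that correlation cannot decide the direction either, and the direction is not settled. With the sign turned, the 57 higher genes become lower and the 67 lower genes become higher. At 4 h the limit values were nearly all negative on replicates 1 and 4 and nearly all positive on replicates 2 and 3, a split that does not follow the labelled dye, whereas at 12 h and 72 h it does. With limit values set missing, 4 h replicates 1 with 4 and 2 with 3 correlated at 0.55 and 0.64. The pairs of the same labelled dye, 1 with 2 and 3 with 4, correlated at 0.20 and 0.18, and 1 with 3 and 2 with 4 at 0.20 and 0.29. Tissue could not be checked against marker levels, because ratios give no level. The 6 measured green tissue genes had median log2 ratios of 0.07, -0.90 and -0.36 at 4, 12 and 72 h. Those of the 4 pollen and anther genes were -0.09, -0.27 and -0.40. In either list 0 genes passed the test at 4 h (limma, adjusted p under 0.05) or were members. Whether the tissue makeup shifted between Dex and mock at the later times was not tested.

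Few of the members carry a name. The gene table gave a symbol beyond the locus identifier to 14 of the 124 members, 4 of the higher and 10 of the lower ones (11.3%, against 11.9% of all named genes), and AT2G30020 had the synonym AP2C1. All 124 were protein-coding genes. The other members are given by locus alone, with no function attached.

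Among the lower genes was IAA29, which encodes an Aux/IAA protein, a repressor of auxin-responsive transcription whose own gene is induced by auxin. On the 4 arrays of 4 h IAA29 had centred log2 ratios of -1.06, -2.08, -2.24 and -0.67 (mean -1.51 ± 0.77, SD, n = 4, 2.86-fold). At 12 h its values were -0.31, 0.14, -0.19 and 1.68, and at 72 h -0.57, 0.11, -0.03 and -0.87. All 4 h arrays lay below 0 while the later arrays lay on both sides of it, and 12 h replicate 4 stood far above the other 12 h arrays. Of the 12 measured genes whose names hold the auxin words, IAA29 was the 1 member, and 3 passed the test at 4 h (limma, adjusted p under 0.05) on the lower side and 0 on the higher side. Of all 18125 features tested, 11.1% passed at 4 h, 6.87% on the lower side and 4.21% on the higher side.

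The annotated members include 3 genes of transcription factors, each with a negative mean at 4 h. WRKY6, a WRKY factor known from senescence, defence and phosphate starvation, had -1.91, -1.21, -0.88 and -1.76 at 4 h (mean -1.44 ± 0.48, SD, n = 4). Its 12 h values ran between -0.39 and 0.13 and its 72 h values between -0.53 and 0.44, so that no later array reached the 4 h arrays. ATMYC1, a bHLH factor of epidermal cell fate, was at -0.93, -1.12, -1.23 and -0.58 at 4 h (mean -0.97 ± 0.28). All 4 of its 12 h arrays were above 0, at 0.62, 0.52, 0.21 and 0.14 (mean 0.37 ± 0.23), which places ATMYC1 among the members closest to the limit of 0.4 at 12 h. BHLH101, a bHLH factor of the iron-deficiency response, had -2.55, -0.25, -0.34 and -0.47 at 4 h. Its mean of -0.90 ± 1.10 thus rested mostly on replicate 1. Of the 59 measured genes with transcription factor words in their names, WRKY6 and BHLH101 were the 2 members, and 1 passed the test at 4 h on the higher side and 3 on the lower side, where 4.21% and 6.87% of all features did.

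PUB25 encodes a U-box protein of the ubiquitin ligase type, which marks other proteins for breakdown. It had -1.88, -1.39, -1.62 and -1.17 at 4 h (mean -1.51 ± 0.31, SD, n = 4), against -0.26, -0.08, -0.31 and -0.06 at 12 h and 0.09, -0.01, -0.21 and 0.18 at 72 h. The 4 h arrays of PUB25 did not overlap with those of either later time.

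The 2 members of the UDP-glucosyl transferase family, enzymes that attach sugars to small molecules, went opposite ways. UGT73B5 was lower, with -1.68, -1.62, -1.10 and -1.52 at 4 h (mean -1.48 ± 0.26, SD, n = 4), and its means were -0.27 ± 0.28 at 12 h and -0.10 ± 0.49 at 72 h. UGT76E1 was higher, with 0.85, 1.48, 1.42 and 1.43 at 4 h (mean 1.29 ± 0.30), and its means were 0.00 ± 0.17 and -0.21 ± 0.48. In both genes all 4 h arrays were on one side of 0 and farther from it than any later array. Of the 40 measured glycosyltransferase genes, 3 passed the test at 4 h on the higher side and 9 on the lower side, beside 4.21% and 6.87% of all features.

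Genes of the cell wall and of growth were on both sides. EXO (EXORDIUM), a gene of cell expansion that responds to brassinosteroid, had 1.03, 1.75, 1.40 and 1.25 at 4 h (mean 1.36 ± 0.30, SD, n = 4). At 12 h EXO had -1.55, 1.05, -0.33 and -0.07, so its 12 h mean of -0.22 ± 1.07 averaged arrays of both signs, and 1 of them reached the lowest 4 h array. At 72 h the values of EXO were -0.30 to 0.36. ATPMEPCRB, also called PME41, a pectin methylesterase that modifies wall pectin, had 0.42, 0.98, 0.79 and 0.99 at 4 h, with means of -0.29 ± 0.19 at 12 h and -0.22 ± 0.21 at 72 h. TBL28, of the TRICHOME BIREFRINGENCE-LIKE family of wall polysaccharide acetylation, had -2.32, -0.55, -0.47 and -0.34 at 4 h, and replicate 1 stood far below the other arrays. Of the 60 measured cell wall genes, 11 passed the test at 4 h on the higher side and 8 on the lower side, beside the same 4.21% and 6.87% of all features.

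Metabolic and signalling genes made up the rest of the annotated members. PPDK, the pyruvate orthophosphate dikinase that turns pyruvate into phosphoenolpyruvate, had -1.62, -1.01, -0.70 and -0.91 at 4 h (mean -1.06 ± 0.40, SD, n = 4), and its 12 h arrays lay between -0.22 and 0.04. At 72 h the values of PPDK were more spread, at -0.31, 0.91, 0.35 and 0.22. GPDHp, the plastidic glycerol-3-phosphate dehydrogenase of glycerolipid synthesis, averaged -0.80 ± 0.26 at 4 h, with -0.20 ± 0.32 at 12 h and 0.06 ± 0.29 at 72 h. AtS40-3, of a family named for senescence, averaged -0.71 ± 0.20 at 4 h. On the 72 h arrays it had -1.07, -0.76, 1.12 and -0.75, so that 3 of the 4 arrays were at or below its 4 h mean and the mean of -0.36 ± 1.00 met the rule through replicate 3. On the higher side, LPR2 (Low Phosphate Root2), of the root growth response to low phosphate, had 0.44, 1.10, 1.08 and 0.66 at 4 h (mean 0.82 ± 0.32), and AP2C1, a protein phosphatase that acts on stress-activated MAP kinases, had 0.38, 1.07, 1.03 and 0.97 (mean 0.86 ± 0.33). LPR2 and AP2C1 kept positive means at 12 h, of 0.29 ± 0.19 and 0.35 ± 0.21, and at 72 h, of 0.25 ± 0.15 and 0.24 ± 0.24. LPR2 was above 0 on every array of both later times.

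**Figure D1:**
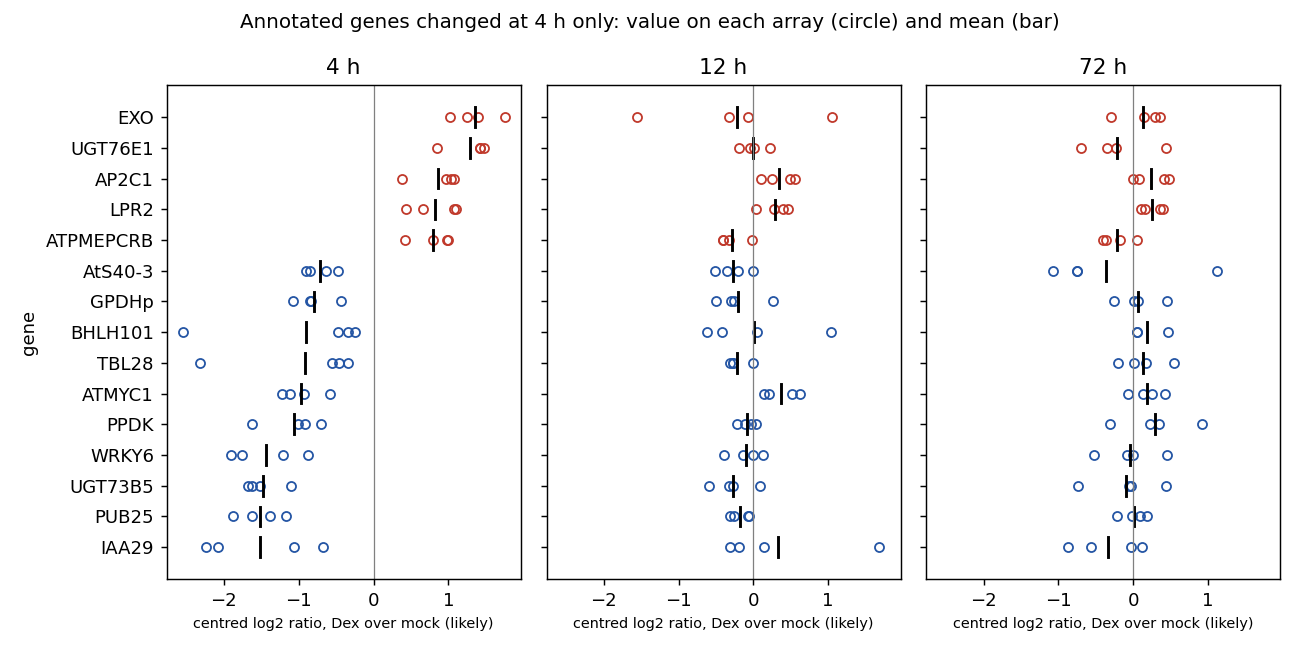
Centred log2 ratio (Dex over mock, the likely direction) on each array (circles) and the mean (bar) of the 15 members with a symbol or a gene-name synonym, in panels for 4, 12 and 72 h. Red genes were higher and blue genes lower at 4 h; BHLH101 and TBL28 show 1 array far from the other 3 at 4 h, and EXO, IAA29 and AtS40-3 show 1 or more arrays far from the others at a later time.

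The lowest means at 4 h belonged to loci without a symbol. AT1G63350 had -2.58, -2.41, -2.48 and -2.43 at 4 h (mean -2.47 ± 0.08, SD, n = 4, 5.56-fold), against 0.25, -0.04, -0.04 and -0.03 at 12 h and -0.26, 0.06 and -0.79 at 72 h, where replicate 2 had no value. AT1G26410 had -2.50, -2.20, -2.11 and -2.76 at 4 h (mean -2.39 ± 0.29, 5.25-fold) and was above 0 on all later arrays, at 0.08 to 0.26 at 12 h and 0.32 to 0.48 at 72 h. In these 2 loci the arrays of 4 h agreed closely and stood more than 1 log2 unit from every later array. AT1G56270 (-1.75 ± 0.26), AT1G66830 (-1.68 ± 0.10) and AT1G17990 (-1.44 ± 0.35) were next among the lower loci with every 4 h array past 0.7. AT1G66830 was also the member nearest to the 12 h limit, at -0.38 ± 0.57, with 12 h arrays of -0.17, -0.59, 0.29 and -1.04.

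Among the higher loci without a symbol, AT2G41090 (1.23 ± 0.42, SD, n = 4), AT2G24550 (1.21 ± 0.47), AT5G35737 (1.14 ± 0.42) and AT4G09760 (1.13 ± 0.20) had every array of 4 h past 0.7. AT3G13600 had 0.67, 1.84, 1.26 and 1.31 (mean 1.27 ± 0.48). AT5G56980 (0.27, 2.46, 1.56 and 0.12) and AT1G14800 (0.59, 1.81, 2.65 and 0.03) were high on replicates 2 and 3 and low on replicates 1 and 4, the split that the sign of the limit values also makes at 4 h. AT3G15630 had the same split, with 0.05, 2.03, 2.70 and 0.52, and so, on the lower side, had IAA29. The split was not limited to these 4 genes, and AT3G49030 had it too, with 0.02, 1.46, 2.41 and 0.06. The part of the array orientation was not tested. Over all 57 higher members the median was 0.93 on the pair of replicates 2 and 3 and 0.77 on the pair of replicates 1 and 4, and over the 67 lower members it was -0.93 and -0.87. By labelled dye, the median of the higher members was 0.76 on the arrays with Dex RNA in Cy5 and 0.96 on those with it in Cy3, and that of the lower members -1.01 and -0.79. The Cy5 pair was farther from 0 in 11 of the 57 higher and in 51 of the 67 lower members, so the ratios of most members were lower on that pair. By labelled dye the means of both pairs were past 0.7 in 35 higher and 41 lower members. By the sign of the limit values they were in 23 and 39.

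The members differed in how evenly the 4 arrays carried the mean. In 27 members all 4 arrays of 4 h were past 0.7 in the gene's direction, in 46 members 3 arrays were, in 33 members 2 and in 18 members 1. A single array made up more than 50% of the sum over the 4 arrays in 26 members, most often replicate 1, with 10 members. Of these 10 members 9 were lower genes, and the limit values on replicate 1 were nearly all negative. Replicate 4, with limit values all negative, had 4 higher and 2 lower such members. Replicates 2 and 3, with limit values nearly all positive, had 2 higher and 2 lower, and 5 higher and 1 lower. A link with the limit values was not tested. Without its farthest array 72 members kept a mean past 0.7, while in 15 members the mean of the other 3 arrays was under 0.4. AT5G49200 had -6.64, -0.24, -0.05 and -0.15 at 4 h, so its mean of -1.77 came almost entirely from replicate 1. The value of -6.64 is after centring, which subtracted 0.025 on replicate 1. Before centring it lay just inside the limit of the table, so it was not set missing. The highest mean of all members, 1.53 ± 2.44 in AT3G57980, came from 5.18, 0.18, 0.17 and 0.57, and the next, 1.52 ± 2.45 in AT5G59670, from 0.18, 0.32, 0.39 and 5.20. AT5G59470 had -0.39, -5.26, -0.70 and -0.16. In these 4 loci 1 array was many times farther from 0 than the other 3, and the rule took them in because the other 3 shared its sign.

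**Figure D2:**
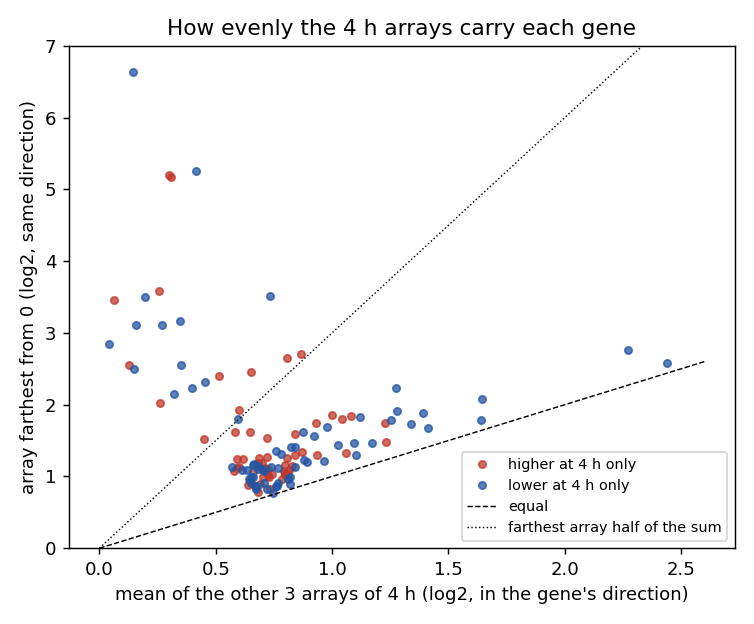
Each point is 1 of the 124 members: the mean of the other 3 arrays of 4 h (x axis, log2, in the gene's direction) against the array farthest from 0 (y axis, log2). On the dashed line the arrays are equal, and the 26 members above the dotted line have over 50% of their sum on 1 array; AT1G63350 and AT1G26410 lie near the dashed line at the right, AT5G49200 at the top left.

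Genes chosen without one 4 h array give a value that the choice did not use. With replicate 1 left out, 144 genes met the rule on the other arrays, and 131 of the 143 with a value on replicate 1 had the same sign there (91.6%, against 60.3% of all named genes). The shares were 92.2% for replicate 2, 92.0% for replicate 3 and 89.9% for replicate 4, against 67.5%, 61.2% and 60.0% of all named genes. The median value on the left-out array, in the direction of choice, was 0.56, 0.82, 0.74 and 0.59 for replicates 1 to 4, against 0.07, 0.11, 0.08 and 0.09 over all named genes. On the 3 arrays used to choose, the median absolute mean of the same genes was 0.91, 0.87, 0.87 and 0.93, so the left-out array lay nearer to 0 in each case. All named genes were not chosen by size or sign at 4 h, so the gap cannot be read as particular to genes changed at 4 h only.

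**Figure D3:**
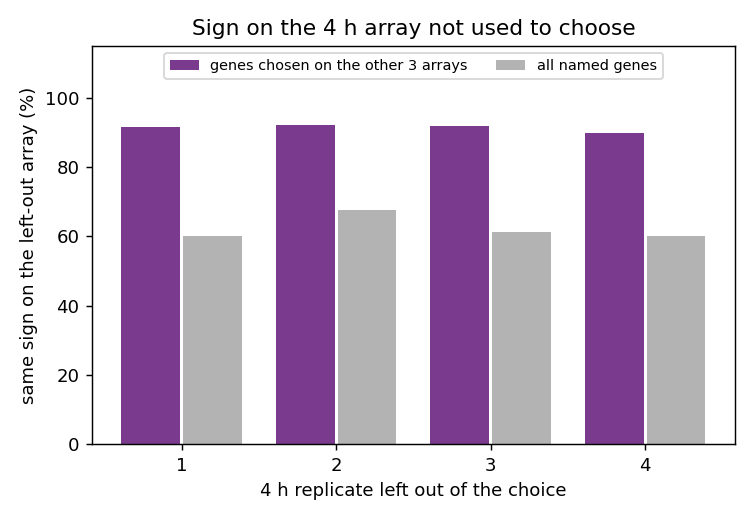
Share of genes (%) whose sign on the left-out 4 h array matched the sign of their mean on the other 3 arrays, for each replicate left out. Purple bars are genes that met the rule on the other arrays (129 to 143 genes with a value) and grey bars all 10325 named genes with 4 values at 4 h; purple bars stand at 89.9% to 92.2% and grey bars at 60.0% to 67.5%.

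At 12 h the 124 members had means between -0.38 and 0.37, as the rule required, but their sign was not part of the rule. The mean at 12 h had the sign of 4 h in 89 members, against 3910 of the 6419 named genes with means under 0.4 at both later times. At 72 h it did in 68 members, against 3244 of those 6419 genes. The 6419 genes were not chosen by size or sign at 4 h. Their median 4 h mean, in its own direction, was 0.11, against 0.88 for the members. So the gap cannot be read as particular to the members. The medians of the 57 higher members were 0.86, 0.12 and 0.12 at 4, 12 and 72 h, and those of the 67 lower members were -0.90, -0.083 and -0.00094. A mean near 0 did not always come from arrays near 0. At 12 h 107 members had every measured array within 0.7 of 0, and at 72 h 78 did, while 12 and 21 members had an array at least 1 from 0. AT1G61700 had 2.85, -3.69, 0.27 and -0.29 at 72 h, which average to -0.21 ± 2.69 (SD, n = 4). AT1G16500 had 0.73 and 0.93 on 72 h replicates 2 and 3 and -2.30 on replicate 4. The median SD between arrays at 4, 12 and 72 h was 0.32, 0.21 and 0.31 for the members, against 0.21, 0.19 and 0.35 over all named genes. Over the 6419 genes under 0.4 at both later times it was 0.19, 0.17 and 0.30. The rule used the means of these same arrays and let in genes with 1 extreme 4 h array, so nothing is read from the differences in SD.

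**Figure D4:**
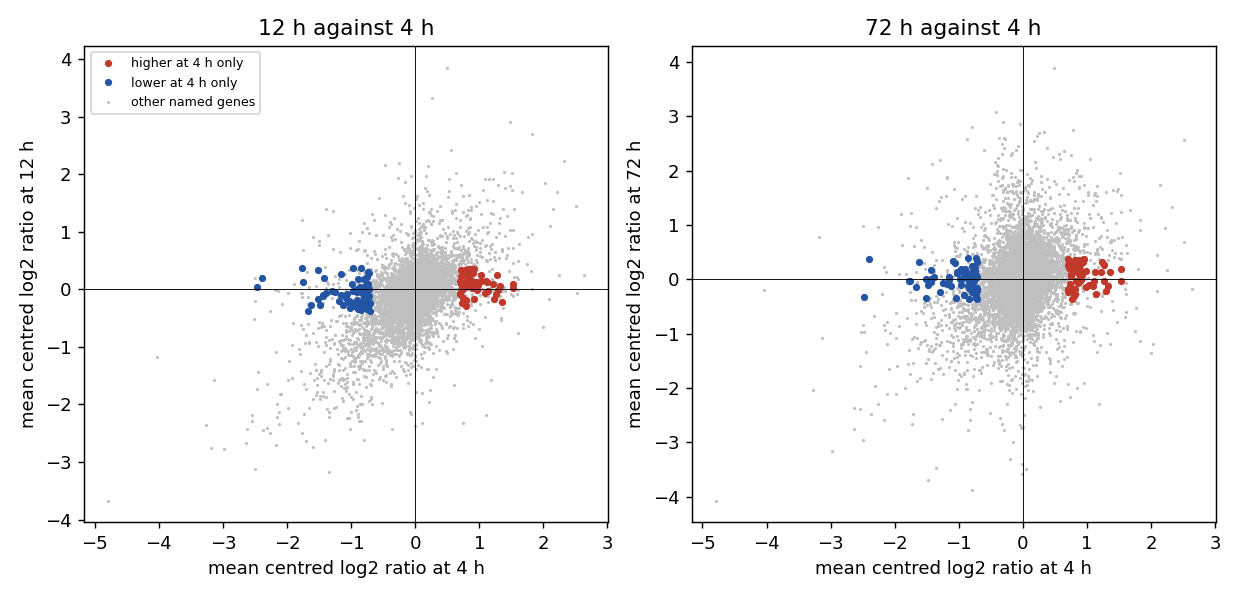
Mean centred log2 ratio at 12 h (left) and at 72 h (right) against that at 4 h for each named gene. Red and blue points are the 57 higher and 67 lower members, which the rule confines to a band of 0.4 around 0 on the y axes, and grey points are the other named genes.

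The linear model over all 12 arrays (limma, adjusted p under 0.05) called 91 of the 124 members at 4 h, 42 higher and 49 lower. Of all 18125 features, 11.1% were called, 4.21% higher and 6.87% lower. The rule used this contrast, so nothing is read from the difference. The test of 4 h against 12 h called 37 members, 13 with a higher and 24 with a lower ratio at 4 h, where 2.43% of all features were called, 1.40% higher and 1.04% lower. That of 4 h against 72 h called 62 members, 21 higher and 41 lower, where 8.55% of all features were called, 3.57% higher and 4.98% lower. The rule used both later times as well, so nothing is read from these counts. All 3 tests, without a replicate block, called 36 members, among them PUB25, UGT73B5, WRKY6, PPDK, ATMYC1, UGT76E1 and ATPMEPCRB. In 61 members, among them IAA29, EXO, BHLH101, TBL28, LPR2 and AtS40-3, neither difference passed, so for them a difference between 4 h and the later times was not shown. With the replicate number as a block, 17 members passed for 4 h against 12 h and 45 for 4 h against 72 h. The blocked fit also called 38 members at 4 h, but its 4 h term is the level of replicate 1, not the mean over replicates. So 38 cannot be set against 91. With only the 4 h and 12 h arrays in the blocked fit, 2 members passed for 4 h against 12 h. That fit has few arrays for the terms it estimates, so its count cannot be read as an effect of pairing. The count for the 12 h difference was 9 without 12 h replicate 4, 12 without 12 h replicate 2, 12 h replicate 3 or 4 h replicate 2, and 21 or 22 without 12 h replicate 1, 4 h replicate 4 or 4 h replicate 3. Shares of all features called were taken for the main fit alone, so a change in these counts cannot be read as particular to the members.

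The members were a minor part of the genes that departed from 0 at 4 h. The first part of the rule, on 4 h alone, was met by 662 named genes, 216 higher and 446 lower. Of the higher ones 57 (26.4%) and of the lower ones 67 (15.0%) were members. A further 311 of the 662 (47.0%) had means of at least 0.4 in the direction of 4 h at both later times, 127 were under 0.4 at 72 h but not at 12 h, and 67 were under 0.4 at 12 h but not at 72 h.

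The limits of the rule cut through a continuous range. At 4 h AT5G39640 (0.7003), AT1G16500 (0.7004) and AT1G54820 (0.703) lay just inside, and AT1G64500 (0.698), LOJ (-0.695) and NDB2 (-0.694) just outside. At 12 h AT1G66830 (-0.379), AT1G61700 (-0.373) and ATMYC1 (0.372) lay just inside and AT1G36940 (0.405), AT1G27300 (0.418) and AT1G62050 (0.435) just outside. At 72 h AT1G22570 (0.394), AT3G22560 (0.385) and AT2G39980 (0.377) lay just inside and AT1G63300 (-0.403), AT5G05320 (0.404) and AT5G03890 (0.415) just outside.

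Members lay on all 5 chromosomes, 32 on chromosome 1, 23 on 2, 21 on 3, 22 on 4 and 26 on 5. Of the named genes tested on chromosomes 1 to 5 these were 1.15%, 1.44%, 0.91%, 1.41% and 1.07%. On chromosome 1 the members were 8 higher and 24 lower genes, and on chromosome 3 they were 14 higher and 7 lower. A single pair of members stood next to each other in the gene order, AT1G78850 and AT1G78860 on chromosome 1. AT1G78850 lay between -1.68 and -0.78 on the arrays of 4 h and AT1G78860 between -1.47 and -0.84, and the means of both were between -0.10 and -0.01 at the later times. With 1 gene between them, AT4G29100 (-0.78) and AT4G29110 (-0.91) were both lower and AT2G29300 (0.76) and AT2G29320 (0.82) both higher at 4 h, whereas AT1G14780 (-0.83) and AT1G14800 (1.27) went opposite ways. Cross-hybridisation between neighbouring copies was not tested.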

How the data were processed

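Per the labels' protocols, total RNA was copied into cDNA, amplified with T7 polymerase, dye-coupled and fragmented for oligonucleotide arrays. The authors deposited 1 log2 ratio per probe and array, between its 2 channels. The base was read from the values, whose limits are log2 of 100 and its negative (6.64 and -6.64). How the ratios were background-corrected, normalized and centred, and which channel is on top, is not given in the sources used here.

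Of 26090 gene probes, 13960 had 1 gene name and 0 had several. Of these, 13954 matched the TAIR10.1 gene table by gene ID or locus name, giving 13739 loci. Probes of a locus were averaged, and 1 member, AT2G35390, had exactly the values of another feature. Values at the limits were set missing. Features with at least 3 values per time were kept, and the median over those 18125 was subtracted from each array. All 12 arrays entered 1 model, with a mean per time and the labelled dye as covariate, in limma 3.58.1 in R 4.3.3, with Benjamini-Hochberg adjustment over all features and a threshold of 0.05. The scripts were tested on simulated data. Before limit values were set missing, arrays had values for 21888 to 22385 gene probes, of which 9.43% to 17.2% per array were at the limits. From ratios without signal levels, only the number of arrays with a value can limit the stated precision.

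Members and lists were chosen with earlier results of these data known. The 28 lists match words in gene symbols and synonyms, so most genes are in none. Genes were named as the 12 highest and 12 lowest members, those with a symbol, up to 4 per list, those nearest the limits and adjacent members; AP2C1 and other loci outside this rule were chosen after their values were seen. The labels do not say whether replicates were separate plants. The deviations of same-numbered arrays from their time means correlated at 0.15 to 0.35 between 4 h and 12 h and at -0.29 to -0.10 with 72 h, and the replicate number was fitted as a block as an alternative. Differently numbered arrays of 4 h and 12 h whose limit values had the same sign correlated at 0.16 to 0.31, and those of opposite sign at -0.37 to -0.15. Same-numbered arrays of 4 h and 12 h always had the same sign, and same-numbered arrays of either time and 72 h the opposite sign. Differently numbered arrays of opposite sign correlated at -0.23 to -0.12 between 4 h and 72 h and at -0.27 to -0.0045 between 12 h and 72 h. Those of the same sign correlated at 0.11 to 0.26 and at 0.0039 to 0.31. Whether the replicate number adds anything beyond that sign was not tested. Promoters were not analysed here.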

Additional observations from a re-analysis of the deposited data

Results flagged for a closer look

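A test for 1 array far from the other 3 of its time (Dixon's, at its 95% critical value) picked out 19 of the 147 groups of 4 arrays of the named genes, where chance picks about 1 in 20. Many of these genes were named for extreme 4 h means, which favours genes with 1 extreme array, so nothing is read from that count. At 4 h replicate 1 stood apart in TBL28 (-2.32), BHLH101 (-2.55), AT5G49200 (-6.64), AT3G57980 (5.18) and UGT76E1 (0.85, below the others). Replicate 2 stood apart in AT5G59470 (-5.26), replicate 3 in AT1G27300 (2.37), which is no member, and replicate 4 in AT3G27950 (-3.51), AT5G39640 (2.02), AT5G59670 (5.20) and LOJ (-0.44), which is no member. At 12 h replicate 1 stood apart in AT1G63350 (0.25) and TBL28 (-0.0045), and replicate 4 in AT5G49200 (1.95). At 72 h replicate 3 stood apart in AT3G22560 (1.56), AT3G27950 (0.71) and AtS40-3 (1.12), replicate 1 in AT1G26410 (0.48) and replicate 4 in AT5G35737 (-0.56).

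The response differed between times, by limma's test of the difference itself, in 37 members for 4 h against 12 h (17 with a replicate block), where 2.43% of all features were called, and in 62 for 4 h against 72 h (45 with the block), where 8.55% were. Both shares of all features are those of the fit without a block. The rule chose the members for such a difference, so nothing is read from these counts.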

How the results depend on the processing

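The number of members was 124 and ranged from 111 to 144 when 1 array was left out. It was 197 with quantile normalization, 81 with later means under 0.3, 192 with no rule on signs and 72 with every later array within 0.7, and within 1.5 times of 124 under the other 8 settings, among them limit values kept (147, of which 110 were members). Members called at 4 h ranged from 74 to 92 with 1 array left out, against 91. Those called for 4 h against 12 h ranged from 9 to 55, against 37, and those for 4 h against 72 h from 44 to 61, against 62. The 12 h difference called 14 members with limit values kept, 59 with quantile normalization, 60 with equal median absolute deviations, 8 at adjusted p under 0.01 and 90 when arrays were weighted. The 72 h difference called 32 at adjusted p under 0.01 and 34 with only the arrays compared. With a replicate block 17 members were called for the 12 h difference and 45 for the 72 h difference. The block called 38 members at 4 h, for the level of replicate 1 and not the mean over replicates, so 38 cannot be set against 91. The block with only the 4 h and 12 h arrays, added after seeing the data, called 2 for the 12 h difference. That fit has few arrays for the terms it estimates, so its count cannot be read as an effect of pairing. The dye read from the sign of the limit values, chosen after seeing the data, called 92, 47 and 64. Shares of all features called were taken for the main fit alone, so none of these changes in counts can be read as particular to the members. Of 287 values of the 41 named members' 4 h means under other settings, 7 moved by over 1 SD, all with quantile normalization and away from 0. Their sign was fixed by the rule. The cause of these shifts was not tested.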

Other observations

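Among the features without a gene name, 97 met the same rule as the 124 named members.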
